A study of Mus musculus with 6 samples.

Results

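The cadherins and the protocadherins that lie outside the large protocadherin gene cluster were followed in mouse neural precursor-like cells with and without Lgi1. Genes were taken by name, as those with the symbol Cdh or Pcdh followed by a number (with an x for Pcdh11x). The choice of genes uses no measured value, although it was set with earlier results of these arrays known. For a gene with several probe sets, the one with the highest mean over all arrays was kept. The rule gave 35 of the 19938 genes measured, 23 of them named Cdh and 12 named Pcdh. Although most are classical cadherins or delta-protocadherins, the name also takes in Cdh13, Cdh16, Cdh17, Cdh23, Cdh26, Pcdh12, Pcdh15 and Pcdh20, which are neither.

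Total RNA came from immortalized cells homozygous for an Lgi1 deletion (3 knock-out arrays) and from immortalized cells with intact Lgi1 (3 wild-type arrays). Both derive from the embryonic brain of C57BL/6J mice at day 13.5, and both were kept after immortalization in RPMI medium with little serum. Lgi1 encodes a secreted neuronal protein of synapses. The labels name 3 biological replicates for each genotype and give no number of embryos or of cell lines, so the p-values reflect how much these particular samples vary, and that variation may be technical. Each sample was hybridised to an Affymetrix Mouse Gene 1.0 ST array, whose probes are spread along the transcript, and values are log2 levels as deposited. The number of arrays limits the precision of every value below.

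Several facts of these arrays bear on everything that follows. Lgi1 itself lay at 4.53, 4.57 and 4.54 on the knock-out arrays and at 4.61, 4.75 and 4.94 on the wild-type arrays. These values are below the background level of 5.67, the 95th percentile of 1190 olfactory and vomeronasal receptor genes, so the deletion could not be checked from them. Xist, the RNA of the inactive X chromosome, averaged 12.44 in knock-out and 4.64 in wild-type cells, and the Y-linked gene Uty averaged 4.82 in knock-out and 10.03 in wild-type cells. Sex-chromosome content and genotype therefore cannot be told apart. As a check of the labelled cell type, 3 of 18 neural progenitor markers rose and 7 fell in the knock-out arrays, and the list had a mean level of 7.16 to 7.22 on knock-out and 7.72 to 7.81 on wild-type arrays. Sox2, a factor that keeps neural progenitors undifferentiated, was below background in knock-out cells (mean 5.35, against 11.26 in wild-type cells), as was Pax6 (5.44, against 7.12). Sox9, another progenitor factor that also acts in cartilage, and Emx2, a patterning factor of the cortex, rose (Sox9 10.61 in knock-out and 8.05 in wild-type cells, Emx2 8.34 and 7.28). The median log2 fold change of the list was −0.11, and 14.0% of all genes rose and 17.6% fell. Of 20 fibroblast and meningeal markers 14 were higher and 1 lower, with a mean level of 9.42 to 9.50 on knock-out and 7.78 to 7.80 on wild-type arrays and a median log2 fold change of +1.13.

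Cadherins are calcium-dependent adhesion proteins of the cell surface. Classical cadherins bind their own kind on neighbouring cells through their outer repeats, and their tails hold beta-catenin and p120-catenin, which couple the junction to actin through alpha-catenin. In the embryonic brain Cdh2 forms the junction belt that ties neural progenitors together at the ventricle, while other classical cadherins and delta-protocadherins mark regions and cell groups. Protocadherins have more outer repeats, no catenin site of the classical kind and weaker adhesion.

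The cadherin repertoire differed between the genotypes. Cdh11, the cadherin of mesenchymal cells, was 5.67-fold higher in knock-out cells and Pcdh9 was 3.92-fold higher, whereas Cdh2, the neural cadherin, was 3.87-fold lower and Pcdh18 was 2.48-fold lower. Of the 35 genes, 8 rose (22.9%) and 10 fell (28.6%) at an adjusted p under 0.05 in limma with Benjamini-Hochberg adjustment over all genes. The other 17 did not pass. Of all 19938 genes, 14.0% rose and 17.6% fell, 31.6% in either direction, against 51.4% of the members. Changes of at least 2-fold that passed were found for 7 members (20%), 4 higher and 3 lower, and for 5.32% of all genes. The arrays of the genotypes did not overlap for 19 members (54.3%), against 42.3% of all genes. They are the 18 that passed and Pcdh15. Whether these shares exceed those of all genes was not tested, because the members were chosen with results of these arrays known. The median log2 fold change was −0.015 for the members and −0.012 for all genes. In bulk RNA, fewer cells that express a gene and less of its RNA per cell cannot be told apart.

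**Figure D1:**
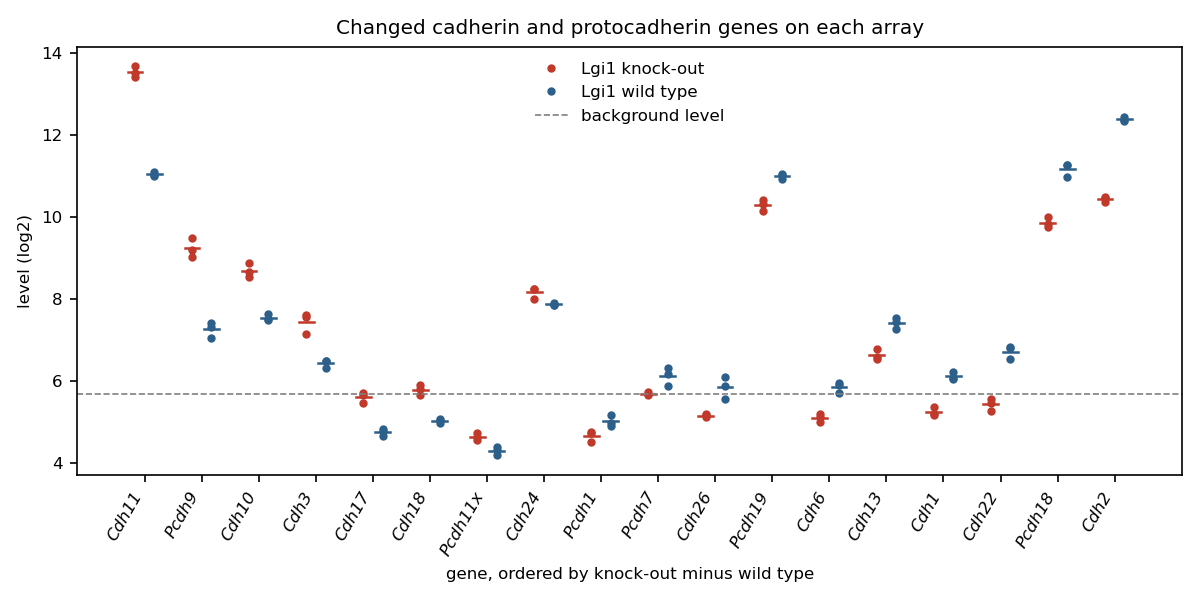
Log2 level (vertical axis) of the 18 changed members on each array, with the Lgi1 knock-out arrays in red to the left of the wild-type arrays in blue. Points are arrays, short bars are means of 3 arrays and the dashed line is the background level of 5.67. The knock-out and wild-type points of each gene are apart, from Cdh11 (means 13.54 and 11.04) to Cdh2 (10.44 and 12.39).

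Level against background divided the members. The mean exceeded 5.67 in both genotypes for 11 genes. In knock-out but not wild-type cells it did so for 1, Cdh18, and in wild-type but not knock-out cells for 4 (Cdh1, Cdh6, Cdh22 and Cdh26). The remaining 19 lay below background in both genotypes, among them 3 that passed the test, Cdh17, Pcdh11x and Pcdh1. For genes with a group below background the fold is limited by that background. A level is compared here only between arrays for the same gene.

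Among type I classical cadherins, whose 5 members include the best known junction proteins, 1 rose, 2 fell and 2 did not pass. Cdh2 stood at 10.46, 10.49 and 10.36 on the knock-out arrays and at 12.37, 12.45 and 12.34 on the wild-type arrays. Every knock-out array lay far below every wild-type array, though still well above background. The log2 fold change was −1.95 (SE 0.06, limma adjusted p = 5e-09). Cdh1, the cadherin of epithelia, had 5.18, 5.16 and 5.36 in knock-out and 6.07, 6.22 and 6.04 in wild-type cells. Its wild-type values were slightly above background and its knock-out values below it (log2 fold change −0.87, SE 0.08, limma adjusted p = 1.2e-05). Cdh3, or P-cadherin, of basal epithelial layers and other tissues, moved the other way, with 7.15, 7.60 and 7.55 in knock-out and 6.49, 6.49 and 6.30 in wild-type cells. Knock-out replicate 1 was the lowest of its group and still exceeded each wild-type array (log2 fold change +1.01, SE 0.11, limma adjusted p = 7.5e-05). Of 17 epithelial markers none rose, 3 fell and 14 did not pass, where 14.0% of all genes rose and 17.6% fell. Their mean level was 5.19 to 5.24 on knock-out and 5.35 to 5.40 on wild-type arrays. The defining marker Epcam was below background in both genotypes (4.81 in knock-out and 5.03 in wild-type cells) and was 1 of the 3 that fell. The other two, Krt19, a keratin of simple epithelia (5.20 in knock-out and 6.97 in wild-type cells), and Spint1, a protease inhibitor of epithelial surfaces (7.32 and 7.99), were above background in wild-type cells and fell as Cdh1 did. The part of epithelial cells in the result was not tested. Cdh4, the retinal cadherin, and Cdh15, the cadherin of skeletal muscle precursors, lay below background in both genotypes and did not pass. Of 10 skeletal muscle markers none rose and 1 fell, again beside 14.0% and 17.6% of all genes. The 1 that fell, Des, was below background in both genotypes (4.70 in knock-out and 5.02 in wild-type cells).

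Among the 13 type II classical cadherins 4 rose, 2 fell and 7 did not pass. Cdh11 had 13.53, 13.67 and 13.42 on the knock-out arrays and 11.01, 11.003 and 11.09 on the wild-type arrays. The lowest knock-out array exceeded the highest wild-type array by more than 2 log2 units, and the gene was well above background in both genotypes. The log2 fold change was +2.50 (SE 0.07, limma adjusted p = 2.6e-09). Of the 20 fibroblast and meningeal markers 14 rose, 1 fell and 5 did not pass. Over all genes 14.0% rose and 17.6% fell. Col1a2 (12.15 in knock-out and 6.85 in wild-type cells) and Postn (12.12 in knock-out and 6.36 in wild-type cells) had the largest rises of the list. Tbx18 fell (9.23 in knock-out and 10.39 in wild-type cells), and Vim, S100a4 and Dcn were among those that did not pass. The part of other cell types in the result was not tested. Cdh10, a cadherin of brain regions, had 8.53, 8.65 and 8.87 in knock-out and 7.499, 7.493 and 7.64 in wild-type cells, again without overlap (log2 fold change +1.14, SE 0.09, limma adjusted p = 4.6e-06).

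The other type II members that passed were dimmer or changed less. Cdh22, a cadherin first described in pituitary gland and brain, had 5.55, 5.45 and 5.27 in knock-out and 6.53, 6.81 and 6.80 in wild-type cells, so that it was above background only on wild-type arrays (log2 fold change −1.29, SE 0.10). Cdh6, known from kidney and from patterned regions of the embryonic brain, had 5.18, 5.002 and 5.12 in knock-out and 5.94, 5.90 and 5.71 in wild-type cells (log2 fold change −0.75, SE 0.08). Cdh18 had 5.79, 5.89 and 5.66 in knock-out and 5.06, 5.03 and 4.96 in wild-type cells (log2 fold change +0.76, SE 0.07). For each of these 3 genes the genotypes did not overlap, and knock-out values were near or below background. Cdh24 had 8.23, 8.004 and 8.24 in knock-out and 7.90, 7.86 and 7.86 in wild-type cells. Its small rise (log2 fold change +0.29, SE 0.07, limma adjusted p = 0.014) did not pass without knock-out replicate 1 (adjusted p = 0.055) or without knock-out replicate 3 (adjusted p = 0.056). Nor did it pass with the mean of its probe sets (+0.12, adjusted p = 0.17).

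Type II members below background included genes known from other cell types. Cdh5, the cadherin of endothelial junctions, averaged 4.76 in knock-out and 4.81 in wild-type cells (95% interval of the log2 difference −0.18 to 0.09). This stood beside rises of the endothelial regulators Erg (9.97 in knock-out and 5.37 in wild-type cells) and Tek (8.21 in knock-out and 5.07 in wild-type cells), while the endothelial surface marker Pecam1 was below background (4.71 in knock-out and 4.73 in wild-type cells). In all, 3 of 14 endothelial markers rose, 1, Kdr, fell and 10 did not pass, among them Cldn5, Tie1 and Vwf. Of all genes 14.0% rose and 17.6% fell. Cdh19, a cadherin of Schwann cell precursors, averaged 4.48 in knock-out and 4.42 in wild-type cells, and the neural crest regulator Sox10 was below background as well (4.97 and 5.07). Cdh7, Cdh8, Cdh9, Cdh12 and Cdh20, which mark groups of neurons or progenitors in the brain and spinal cord, also did not pass.

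**Figure D2:**
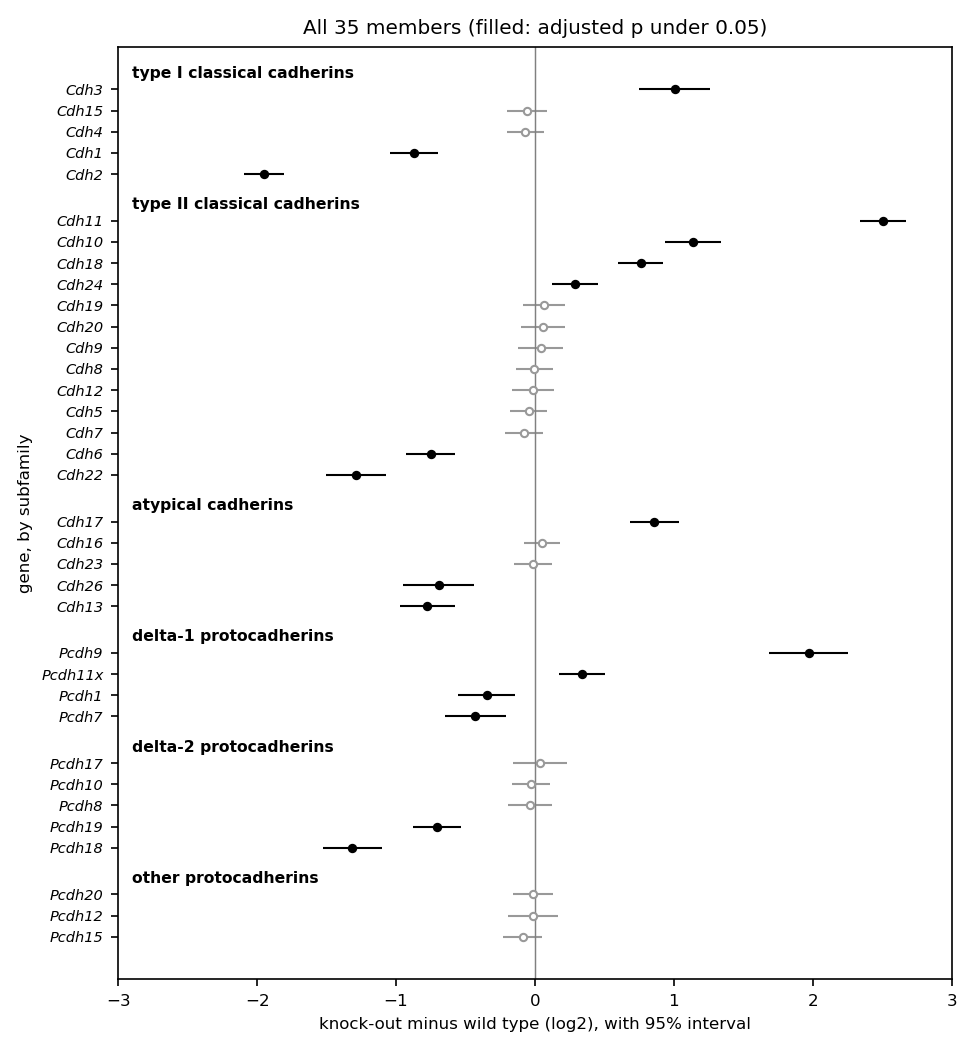
Knock-out minus wild-type difference (horizontal axis, log2) of all 35 members by subfamily, with points for the estimate and bars for its 95% interval, filled where the adjusted p was under 0.05. The members not called lie between −0.09 and 0.06, and the called ones extend from −1.95 (Cdh2) to +2.50 (Cdh11).

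Of the 5 cadherins of atypical structure 1 rose, 2 fell and 2 did not pass. Cdh13, which has no tail and is held to the membrane by a lipid anchor, had 6.54, 6.78 and 6.59 in knock-out and 7.54, 7.43 and 7.26 in wild-type cells (log2 fold change −0.78, SE 0.09, limma adjusted p = 7.8e-05). All its values were above background, and the genotypes did not overlap. Cdh26 had 5.15, 5.18 and 5.12 in knock-out and 5.87, 6.09 and 5.57 in wild-type cells, with its wild-type arrays farther apart than its knock-out arrays (log2 fold change −0.69, SE 0.11). Cdh17, the cadherin of liver and intestine, had 5.66, 5.46 and 5.70 in knock-out and 4.76, 4.82 and 4.66 in wild-type cells (log2 fold change +0.86, SE 0.08). Its arrays did not overlap, but the mean was below background in both genotypes. Cdh16, of kidney, and Cdh23, which forms the tip links of sensory hair cells with Pcdh15, did not pass and lay below background, as did Pcdh15.

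Delta-1 protocadherins carry a longer conserved tail than the delta-2 kind. All 4 members passed, 2 higher and 2 lower. Pcdh9 had 9.49, 9.01 and 9.19 on the knock-out arrays and 7.05, 7.31 and 7.42 on the wild-type arrays. The lowest knock-out array exceeded the highest wild-type array by more than 1 log2 unit (log2 fold change +1.97, SE 0.13, limma adjusted p = 9.7e-07). Pcdh7 had 5.65, 5.73 and 5.68 in knock-out and 6.18, 5.88 and 6.30 in wild-type cells, close to background (log2 fold change −0.43, SE 0.10, limma adjusted p = 0.0073). Pcdh11x, an X-linked gene, averaged 4.63 in knock-out and 4.29 in wild-type cells (log2 fold change +0.34, SE 0.07). Pcdh1, known from airway epithelium, averaged 4.66 in knock-out and 5.01 in wild-type cells (log2 fold change −0.35, SE 0.09, limma adjusted p = 0.016). Both were below background throughout. Pcdh1 did not pass without wild-type replicate 2 (adjusted p = 0.057) or without knock-out replicate 3 (adjusted p = 0.060). With the median of the brighter genes of its chromosome subtracted, an alternative chosen after the data were seen, it was at −0.17 (adjusted p = 0.18).

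Of the 5 delta-2 protocadherins none rose, 2 fell and 3 did not pass. Pcdh18 had 9.84, 9.998 and 9.75 in knock-out and 10.98, 11.27 and 11.28 in wild-type cells (log2 fold change −1.31, SE 0.09, limma adjusted p = 2.4e-06). Pcdh19, an X-linked gene whose mutations cause epilepsy in girls and which acts together with Cdh2 in zebrafish, had 10.31, 10.40 and 10.15 in knock-out and 11.05, 11.02 and 10.92 in wild-type cells (log2 fold change −0.71, SE 0.08, limma adjusted p = 5.4e-05). Both genes were well above background in both genotypes, and their arrays did not overlap. Pcdh17, a protocadherin of synapses, had 5.78, 5.83 and 5.69 in knock-out and 5.89, 5.75 and 5.55 in wild-type cells, at the background level and with overlapping arrays. It was the single member above background in a genotype that did not pass (log2 fold change +0.04, 95% interval −0.16 to 0.23). Pcdh8 and Pcdh10, both expressed in the developing nervous system, and the remaining protocadherins Pcdh12, an endothelial gene, and Pcdh20 lay below background and did not pass. Over the 16 members that were below background in both genotypes and not called, array values ran from 4.31 to 5.17 and 95% limits of the difference from −0.23 to 0.21.

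Neighbouring members moved in both directions. Cdh3 and Cdh1 adjoin each other with no protein-coding gene between them in the RefSeq gene order (GRCm38.p6), and Cdh3 rose while Cdh1 fell. Cdh11 rose between Cdh8 and Cdh5, its nearest protein-coding neighbours, which were below background. On chromosome 15 the type II genes followed in the order Cdh6 (lower), Cdh9 (not called), Cdh10 (higher), Cdh12 (not called) and Cdh18 (higher). Cdh20, Cdh7 and Cdh19 on chromosome 1 lay below background together.

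**Figure D3:**
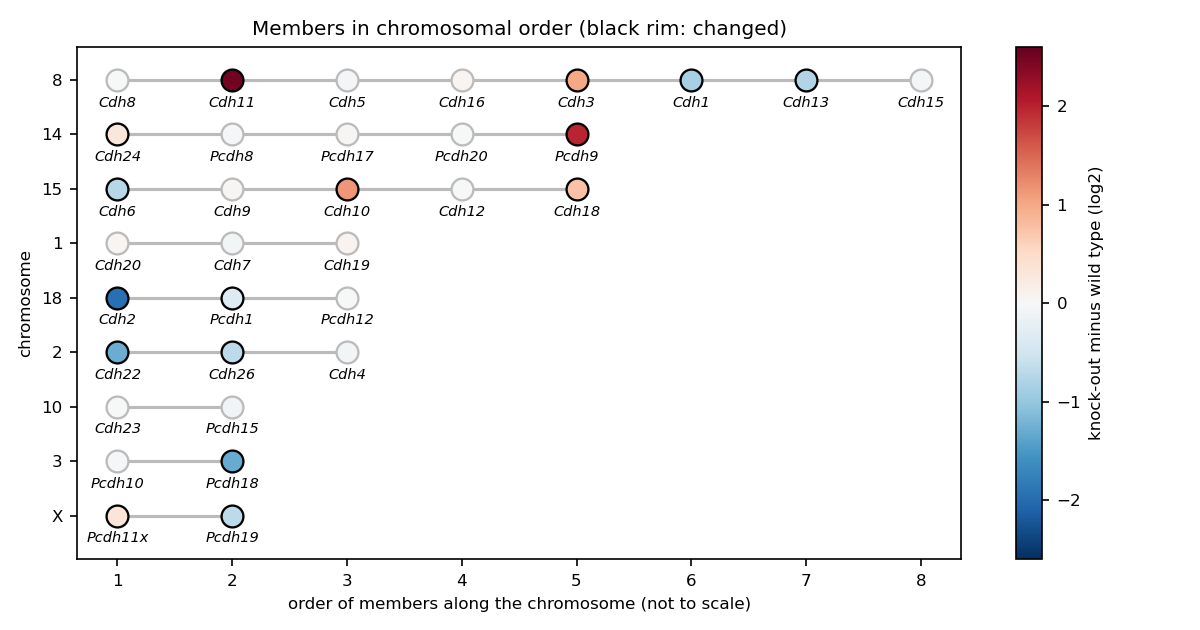
Members in their order along each chromosome (horizontal axis, rank and not distance; chromosomes with a single member left out), coloured by the knock-out minus wild-type difference (log2), with a black rim where the gene changed. On chromosome 8, Cdh11 (+2.50) and Cdh3 (+1.01) rose beside Cdh1 (−0.87), which fell.

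Genes of chromosome 14 tended to be higher in knock-out cells, and it holds 5 members. The median log2 fold change was +0.11 over its 698 genes and +0.41 over the 341 with a mean level above the median of all genes, the highest of the 19 autosomes and X, and over such brighter genes the other chromosomes that hold members had medians of −0.19 (X) to +0.09 (chromosome 1). With the median of all genes of the chromosome subtracted, Pcdh9 stayed higher (+1.86, limma adjusted p = 1.6e-06), and Cdh24 did not pass (+0.17, adjusted p = 0.12). Subtraction of the brighter genes' median, chosen after the data were seen, left Pcdh9 at +1.56 (adjusted p = 6.3e-06) and turned Cdh24 to −0.12 (adjusted p = 0.22). It also put Pcdh17, which lies at the background level, at −0.37 (adjusted p = 0.0080).

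Start-site sequences were available for 22 members in RefSeq's table (GRCm38.p6), 4 of them among the 7 that changed at least 2-fold. They are shown because both directions of change and opposite base compositions occur among them. Each run covers the 250 bases before a transcript start, 5′ to 3′ on the strand of the gene, with CG dinucleotides in capitals. Pcdh9 (chr14:93890670-93890919, minus strand) and Cdh10 (chr15:18820079-18820328, plus strand) rose, while Cdh22 (chr2:165234738-165234987, minus strand) and Pcdh18 (chr3:49757317-49757566, minus strand) fell.
Pcdh9: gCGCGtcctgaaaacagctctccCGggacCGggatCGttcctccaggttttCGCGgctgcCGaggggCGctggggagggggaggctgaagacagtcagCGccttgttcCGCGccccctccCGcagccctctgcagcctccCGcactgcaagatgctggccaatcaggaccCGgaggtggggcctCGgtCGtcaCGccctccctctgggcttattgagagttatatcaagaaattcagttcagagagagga
Cdh10: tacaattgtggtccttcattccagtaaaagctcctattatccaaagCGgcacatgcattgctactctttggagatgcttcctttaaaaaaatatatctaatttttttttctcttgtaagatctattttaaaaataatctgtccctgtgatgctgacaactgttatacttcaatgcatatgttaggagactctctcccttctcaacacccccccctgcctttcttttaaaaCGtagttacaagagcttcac
Cdh22: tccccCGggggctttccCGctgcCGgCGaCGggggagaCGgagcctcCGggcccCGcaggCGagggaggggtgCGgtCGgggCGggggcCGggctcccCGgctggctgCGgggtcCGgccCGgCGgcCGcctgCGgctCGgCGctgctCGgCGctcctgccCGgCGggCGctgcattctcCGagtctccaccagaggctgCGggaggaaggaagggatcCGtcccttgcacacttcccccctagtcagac
Pcdh18: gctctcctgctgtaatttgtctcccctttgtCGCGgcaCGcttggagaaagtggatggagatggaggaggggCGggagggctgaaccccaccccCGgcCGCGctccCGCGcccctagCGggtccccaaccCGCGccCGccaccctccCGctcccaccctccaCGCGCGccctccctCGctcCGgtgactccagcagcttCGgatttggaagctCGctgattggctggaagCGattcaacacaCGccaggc
The Pcdh9 run holds 18 CG dinucleotides and the Cdh10 run 2, so that the 2 genes that rose differ in this feature. Cdh22 has 30 and Pcdh18 has 23. The median was 6 over all 32851 windows of the table and 10 over the 25 windows of members. Windows of members above background in a genotype had a median of 17 (range 0 to 30, 12 windows) and windows of members below background had 7 (range 3 to 22, 13 windows), given as a description.

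The same windows were searched for the E-box CAGGTG on both strands (CACCTG on the printed strand), the letters that the Snail and Zeb repressors are known to bind in the Cdh1 promoter. It occurred in 17.2% of all windows. The table has no window for Cdh1, Cdh2, Cdh3 or Cdh11, which were therefore not searched. None of the 11 windows of the 10 changed members with a sequence held it, and 3 of the 25 member windows did (Cdh7, with 2 of its starts, and Pcdh15). Genes that encode such repressors and other regulators of epithelial to mesenchymal transition rose more often than they fell, 7 against 2 of 14. The median log2 fold change of the list was +0.20. Its members Grhl2, Ovol1, Ovol2 and Snai3 lay below background in both genotypes and did not pass. Among all genes 14.0% rose and 17.6% fell. Foxc2 (+4.28, SE 0.11), Snai2 (+3.05, SE 0.08), Prrx1 (+2.43, SE 0.08) and Twist2 (+1.54, SE 0.10) had the largest changes. The wild-type mean of Foxc2 (5.30) was below background, which limits its fold. Snai2 averaged 11.56 ± 0.08 in knock-out and 8.51 ± 0.15 in wild-type cells (SD, n = 3 each), whereas Snai1 did not pass (7.85 in knock-out and 7.97 in wild-type cells). Zeb1 rose by 0.32 and Zeb2 fell by 0.56 on the log2 scale.

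Genes for the proteins that join cadherins to the cell interior fell more often than they rose. Of 22 measured catenins and junction adaptors 3 rose and 11 fell, with a median log2 fold change of −0.21. The share that fell was 17.6% among all genes. The largest falls were those of Pkp2, a plakophilin of desmosomes (5.50 ± 0.14 in knock-out and 9.38 ± 0.03 in wild-type cells, SD, n = 3 each, log2 fold change −3.88), and of Plekha7, which links p120-catenin to microtubules (5.12 in knock-out and 7.10 in wild-type cells, −1.99). Jup, or plakoglobin, a catenin shared by adherens junctions and desmosomes, was 8.55 in knock-out and 10.02 in wild-type cells (−1.47). Ctnna2, the neural alpha-catenin, was 5.45 in knock-out and 6.58 in wild-type cells (−1.13). Pkp2, Plekha7 and Ctnna2 were below background in knock-out cells, which limits their folds. The core catenins differed less between the genotypes. Ctnnb1, or beta-catenin, did not pass (12.13 in knock-out and 12.21 in wild-type cells), Ctnna1 fell by 0.26 and Ctnnd1, or p120-catenin, rose by 0.25 on the log2 scale. Vcl, or vinculin, an actin linker of junctions under tension, rose by 0.57.

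**Figure D4:**
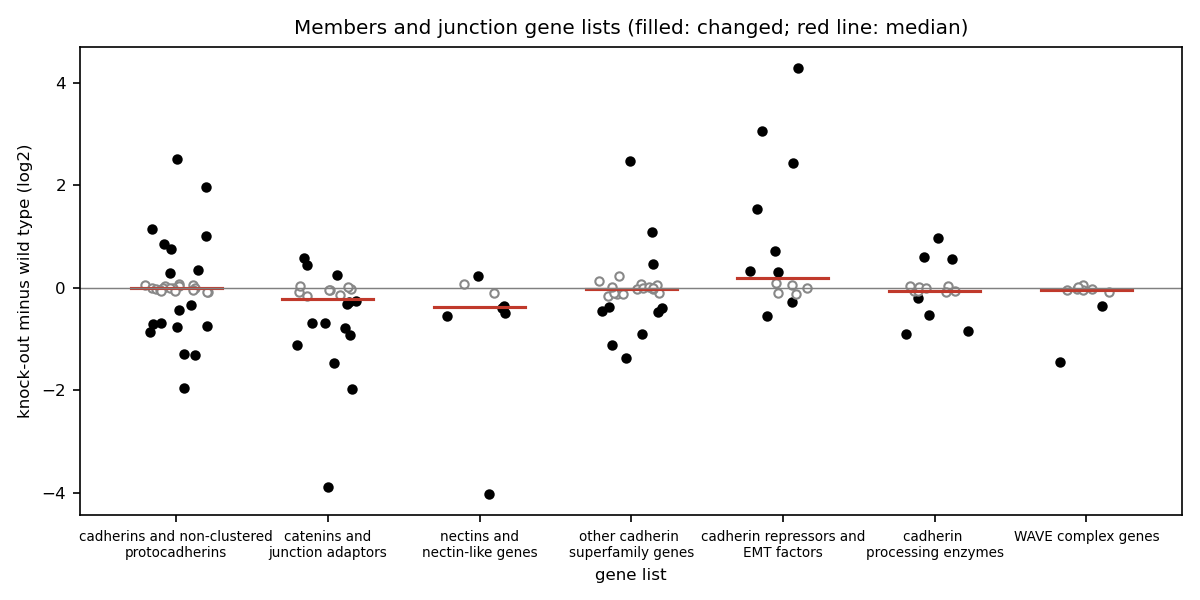
Knock-out minus wild-type difference (vertical axis, log2) of the 35 members and of the genes of 6 related lists, with filled points for changed genes and red lines for medians. Catenins and junction adaptors have a median of −0.21 with Pkp2 at −3.88, and repressors and transition regulators have a median of +0.20 with Foxc2 at +4.28.

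Other adhesion families beside the classical cadherins changed in both directions. Nectins start adherens junctions independently of calcium. Of 8 nectins and nectin-like genes 1 rose and 5 fell (median −0.37). The largest change was that of the nectin-like Cadm1 (6.13 in knock-out and 10.15 in wild-type cells, log2 fold change −4.02, SE 0.10). The nectins themselves ranged from −0.49 (Nectin2) to +0.22 (Nectin3). Of 25 further genes of the cadherin superfamily 3 rose and 7 fell (median −0.03). Beside both counts, 14.0% of all genes rose and 17.6% fell. The large cadherins Fat4 (10.99 in knock-out and 8.52 in wild-type cells, +2.47) and Fat1 (11.73 and 10.65, +1.08) rose. The desmosomal Dsc2 (5.04 in knock-out and 6.40 in wild-type cells, −1.36) and Celsr2, of planar polarity (5.49 and 6.60, −1.11), fell and were below background in knock-out cells.

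For 5 members the array holds more than 1 probe set, and these did not always move by the same amount. Cdh11 has 3 further probe sets that the annotation assigns to 2 other transcripts as well. They were higher on the knock-out arrays by 1.09 to 1.23 log2 units, less than the 2.50 of the probe set annotated to Cdh11 alone. The 2 probe sets of Pcdh9 differed little (+1.97 and +1.98). For Cdh18 the used probe set gave +0.76 and the dimmer one +0.33, and for Cdh24 the used one gave +0.29 and the other −0.05. Both probe sets of Pcdh15 were below background.

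**Figure D5:**
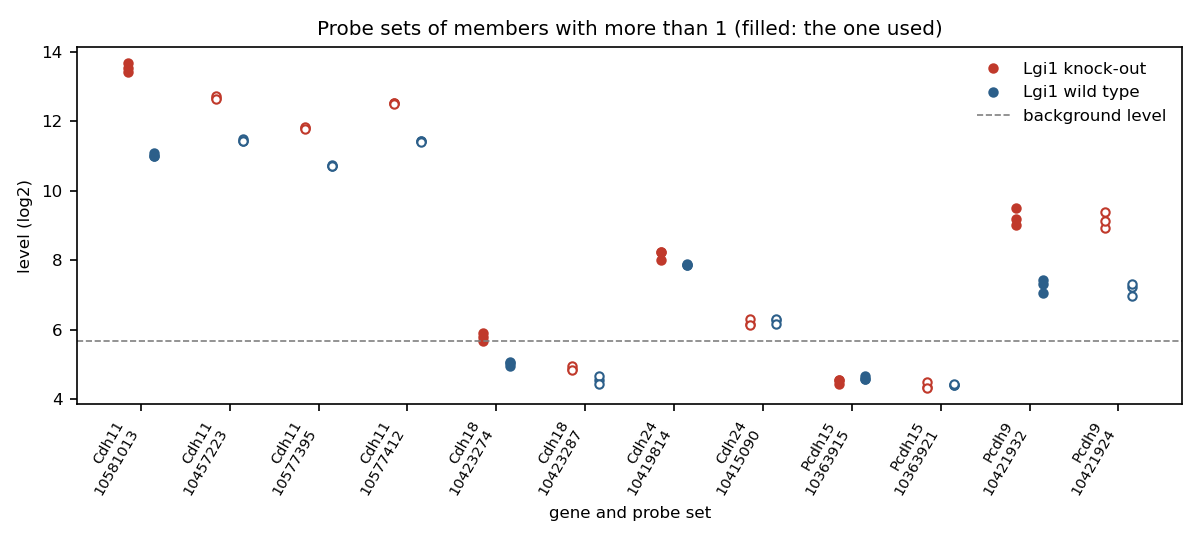
Log2 level (vertical axis) on each array for every probe set of the 5 members with more than 1, filled for the one used, with the Lgi1 knock-out arrays in red to the left of the wild-type arrays in blue. Every probe set that names Cdh11 is higher in knock-out cells, although only 1 is annotated to it alone. The probe sets of Cdh24 part company (+0.29 and −0.05).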

How the data were processed

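The deposited table gives each probe set's level on every array. Its range of values fits a log2 scale, and the authors used Partek, per the submitters' processing notes. The sources used here do not give the background correction, normalization or summarization, and no further normalization was applied to the deposited log2 values. Genotype and replicate number were taken from the titles. Of 35556 probe sets, 21789 had 1 gene symbol in GEO's annotation, 1621 several and 12146 none. For 999 genes with several probe sets the one with the highest mean was kept. RefSeq tables (GRCm38.p6) gave chromosomes, gene order and start-site sequences.

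The genotypes were compared gene by gene over 19938 genes in R 4.3.3, using lmFit and eBayes without a trend (limma 3.58.1). A gene rose, fell or changed at a Benjamini-Hochberg adjusted p under 0.05. Positive fold changes mean higher in knock-out cells. Of all genes 7720 had an unadjusted p under 0.05. The members, lists, tests and alternatives were chosen with earlier results of these data known. Every member is accounted for, those that passed in full. For lists of genes around the junction the text gives counts, the median and up to 4 of the largest changes, and for marker lists counts and chosen markers. Ctnnb1, Ctnna1, Ctnnd1, Vcl, Snai1, Zeb1, Zeb2, Furin and the markers beside single members were named after their values were seen.

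On simulated data with these 19938 genes, 74% of 50 genes changed by 0.5 on the log2 scale were recovered, 96% at 1, 100% at 2 and 100% at 4, and 9 unchanged genes were called. The simulation changed only 50 genes at each size, with independent normal errors, whereas 31.6% of genes were called in the data. Its rates therefore need not hold for these arrays. After subtraction of each genotype's mean, arrays that share a replicate number had correlations of 0.19 to 0.29 (across genes, which are not independent replicates), and the others had −0.18 to −0.0047. Deviations cancel within a genotype, so the negative values follow in part from the positive ones. Whether arrays that share a number are pairs cannot be decided from these correlations. Blocking on the numbers was therefore an alternative, and the SEs and p-values of the main comparison come from a fit without it. Results with 1 array left out, other normalizations, filters and probe set rules are given at the end.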

Additional observations from a re-analysis of the deposited data

Results flagged for a closer look

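Of 7 probe sets of members that were not used, 5 were higher on every knock-out array than on every wild-type array. The others, of Cdh24 and Pcdh15, had overlapping arrays. Over all genes, the arrays did not overlap in either direction for 42.3%. These probe sets were read on the same arrays as the used ones and are not independent replicates. The 3 probe sets assigned to Cdh11 together with other transcripts differed by 1.23 (probe set 10457223), 1.094 (10577395) and 1.103 (10577412) on the log2 scale. The second probe set of Pcdh9 (10421924) differed by 1.98. That of Cdh18 (10423287) differed by 0.33, with all its values below background. Groups of 3 arrays are too small for a test of single outlying arrays.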

How the results depend on the processing

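Of 311 values of 19 named members under the alternatives run, 300 kept their direction and side of the threshold, 7 kept their direction but lost the call, and 4 changed sign. Several alternatives return the main fold by construction, so a kept direction there says nothing. They are the replicate block, the level filters, the trend and robust settings and, for members with 1 probe set, the probe set rules. Those 7 lost calls were of Cdh24 (4) and Pcdh1 (3). Among the values that changed sign with the medians of brighter genes subtracted, Cdh24 also lost its call (limma adjusted p = 0.22) and Pcdh17 gained one. With the replicate number as a block, 8 members rose, 10 fell and 7000 genes changed in all, and no call of a member changed. Among genes above the median level 5 members rose and 4 fell, since the filter leaves fewer genes, and with a 2-fold minimum 4 rose, 3 fell and 1061 genes changed in all. With 1 array left out, 7 to 8 members rose and 9 to 10 fell. Pcdh17 changed sign with chromosome medians subtracted (−0.075), with those of brighter genes subtracted (−0.37, adjusted p = 0.0080) and without wild-type replicate 3, with a range of −0.051 to 0.12 over the 6 fits that leave out an array. Cdh24 turned to −0.12 with the medians of brighter genes subtracted, after which 7 members rose and 12 fell. Those 12 include members below background in both genotypes that did not pass in the main comparison. The 311 values leave out the 16 members of that kind, the 2-fold minimum, and any member that a level filter removed. Signal over background limits the folds of members below 5.67.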

Other observations

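Enzymes that cut or modify cadherins included some that changed. Of 15 measured genes 3 rose and 4 fell (median log2 fold change −0.06), not far from the 14.0% that rose and 17.6% that fell among all genes. Adam10, the main sheddase of Cdh2 and Cdh1, averaged 10.71 ± 0.01 in knock-out and 11.55 ± 0.05 in wild-type cells (SD, n = 3 each, log2 fold change −0.84, limma adjusted p = 1.9e-06). The proprotein convertases Pcsk6 (+0.97) and Pcsk5 (+0.59) rose, and Furin, which removes the cadherin propeptide, did not pass (log2 fold change −0.07, adjusted p = 0.49). Mmp3, a matrix protease, fell (−0.90) and was below background in both genotypes.

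Genes of the WAVE complex, an actin regulator that binds the tails of several delta-protocadherins, mostly did not pass, with none of 9 higher and 2 lower (median −0.04). Wasf3 averaged 6.07 in knock-out and 7.52 in wild-type cells (log2 fold change −1.45, SE 0.07), and Abi1 fell by 0.36. Of 14 neuron markers 1 rose and 2 fell. Of 9 neural crest and Schwann cell markers none rose and 4 fell. The shares over all genes, for comparison with these counts and those of the WAVE genes, were 14.0% higher and 17.6% lower.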
